A study of Arabidopsis thaliana with 12 samples.

Results

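The photoperiod genes GI, FKF1, ZTL, CDF1, CDF2, CDF3, CDF5 and CO were followed across 4 groups of Arabidopsis thaliana seedlings. They were taken by locus identifier, from a list drawn up with earlier results of these data known, and are 8 of the 27655 genes in the table. All 12 libraries were of whole seedlings of wild type Columbia, the common laboratory accession, which had reached 7 days of age at 21°C in short days of 8 h light and 16 h dark. The seedlings were then kept at 27°C with mannitol, at 27°C without it, at 21°C with mannitol or at 21°C without it, with 3 libraries in each group. Treatments started at ZT1, that is 1 h after lights on, and all seedlings were collected at ZT13, 12 h later and 5 h after lights off. Mannitol, an osmotically active polyol that makes water harder for roots to take up, stands in for drought, and its concentration is not stated in the labels. By its title, the series asks how drought acts on growth in warmth. Every group was collected at 1 time of day, so for these cycling transcripts a higher level and a shifted daily phase cannot be told apart.

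Day length reaches flowering in Arabidopsis through a chain of proteins whose transcripts cycle. FKF1 and ZTL are F-box proteins that sense blue light through a LOV domain and mark other proteins for breakdown, and GI binds and stabilises them. The CDF proteins are DOF transcription factors that hold down the transcription of CO and of the florigen gene FT, and the FKF1 and GI complex removes them late in long days. CO is a B-box transcription factor that switches on FT in phloem companion cells when its protein is stabilised by light, so in short days FT stays nearly silent.

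The bases upstream of 3 of these genes are shown because their mean levels ran differently across the groups. FKF1 and CDF2 were both higher at 27°C with and without mannitol, and CDF5 was high at 27°C without mannitol. The mean of FKF1 was highest in 27°C with mannitol, but its difference from 27°C was not called (limma adjusted p = 0.0599). Each stretch shown is the 250 bases before the annotated start in the RefSeq assembly TAIR10.1. It is written 5′ to 3′ on the strand of the gene, with matches to 3 clock-related motifs in capitals. The motifs were the evening element AAATATCT, the G-box CACGTG and the LUX site GATACG or GATTCG, searched on both strands; none of the matches overlapped. FKF1 lies on the + strand and its window is chr1:25508389-25508638, CDF2 lies on the + strand with chr5:15878448-15878697, and CDF5 lies on the - strand with chr1:26163716-26163965.
FKF1: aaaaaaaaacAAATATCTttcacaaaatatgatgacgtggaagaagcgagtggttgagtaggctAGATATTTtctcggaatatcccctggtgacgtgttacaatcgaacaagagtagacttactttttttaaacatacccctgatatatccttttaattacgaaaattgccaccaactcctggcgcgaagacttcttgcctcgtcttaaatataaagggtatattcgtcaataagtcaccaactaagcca
CDF2: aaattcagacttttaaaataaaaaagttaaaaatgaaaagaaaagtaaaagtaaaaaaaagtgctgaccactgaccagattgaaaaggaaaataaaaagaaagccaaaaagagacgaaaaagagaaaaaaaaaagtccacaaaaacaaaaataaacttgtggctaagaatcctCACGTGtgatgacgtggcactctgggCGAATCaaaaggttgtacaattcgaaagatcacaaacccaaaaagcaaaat
CDF5: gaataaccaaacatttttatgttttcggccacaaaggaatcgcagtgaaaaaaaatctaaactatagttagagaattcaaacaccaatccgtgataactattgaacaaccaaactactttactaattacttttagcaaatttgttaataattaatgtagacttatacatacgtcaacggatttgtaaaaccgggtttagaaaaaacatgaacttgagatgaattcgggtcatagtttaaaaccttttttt
The FKF1 window held 2 evening elements, at -240 to -233 on the strand of the gene and at -186 to -179 on the other strand. The CDF2 window held a G-box at -77 to -72 and a LUX site at -51 to -46. No match was found in the windows of CDF5, GI, ZTL, CDF1 and CDF3, and the CO window held a LUX site at -33 to -28. All 250 bases of the CO window lie within AT5G15845, a long noncoding RNA gene annotated on the opposite strand. Among 27443 such windows of the genome, 4.79% held an evening element, 6.49% a G-box and 12.1% a LUX site. These matches describe letters in the windows and say nothing of which factors bind there.

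The libraries were of similar depth, with 13478365 to 14573463 reads recovered from the TPM values (a level per gene length, scaled to a sum of 1000000 per library). The 50 most abundant genes held 13.7% to 19.5% of the TPM, least in 27°C with mannitol. Summed levels of 3 green tissue markers were 21700 to 22600 TPM in 27°C with mannitol, 31200 to 32600 TPM in 27°C, 27100 to 29200 TPM in 21°C with mannitol and 34500 to 35600 TPM in 21°C. Most of that sum was RBCS1A, and the markers did not move together. LHCB3 averaged 126, 446, 530 and 1190 TPM in these groups. CA1 averaged 2340, 2620, 2030 and 2280 TPM, so its means were higher in warmth, though neither warm difference of CA1 was called after median-of-ratios rescaling. Sums of 3 root markers were 4500 to 4900, 2950 to 3200, 2920 to 3040 and 2370 to 2610 TPM in the same groups, nearly all of it PYK10. Those of 3 late seed genes were 8.29 to 34.2, 3.45 to 18.1, 0 to 4.72 and 0.287 to 9.77 TPM. The other root markers went against PYK10 in places: IRT1 averaged 63.6 ± 14.5 TPM in 27°C with mannitol and 240 ± 18.1 TPM in 27°C (SD, n = 3 each; log2 difference -1.92, limma adjusted p = 2.57e-04), and NRT2.1 was lower in warmth, at -1.06 without mannitol and -1.45 with it (adjusted p = 0.00107 and 6.25e-05). In bulk seedlings, fewer cells of a type and less RNA per cell cannot be told apart. The labels do not say whether replicates were grown separately, so p-values measure only the spread between these samples, which may be technical.

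Warmth raised the transcripts of GI, FKF1, ZTL, CDF2 and CDF3 with and without mannitol, and that of CDF5 only without it. The CO transcript was 1.31 TPM or lower in every library. Of the 8 genes, 7 passed the filter of at least 1 TPM in at least 3 libraries; CDF1 did not. At 27°C against 21°C without mannitol, 6 of these 7 were called higher and 0 lower, with a median log2 difference of 1.03, where 28.2% of all 20005 tested genes were called higher, 16.6% lower and 44.8% in either direction, and the median was 0.087. A call is an adjusted p below 0.05 in limma's moderated test on log2(TPM + 1), with Benjamini-Hochberg adjustment over all tested genes. At 27°C against 21°C, both with mannitol, 5 of the 7 were called higher and 0 lower, with a median of 0.95, against 37.5% of all genes higher, 16.5% lower, 54% in either direction and a median of 0.16. GI passed the filter only through its 27°C libraries, which by itself requires a difference, and CO passed with exactly 3 libraries, so these counts describe the genes and are not support for a rule about them.

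**Figure D1:**
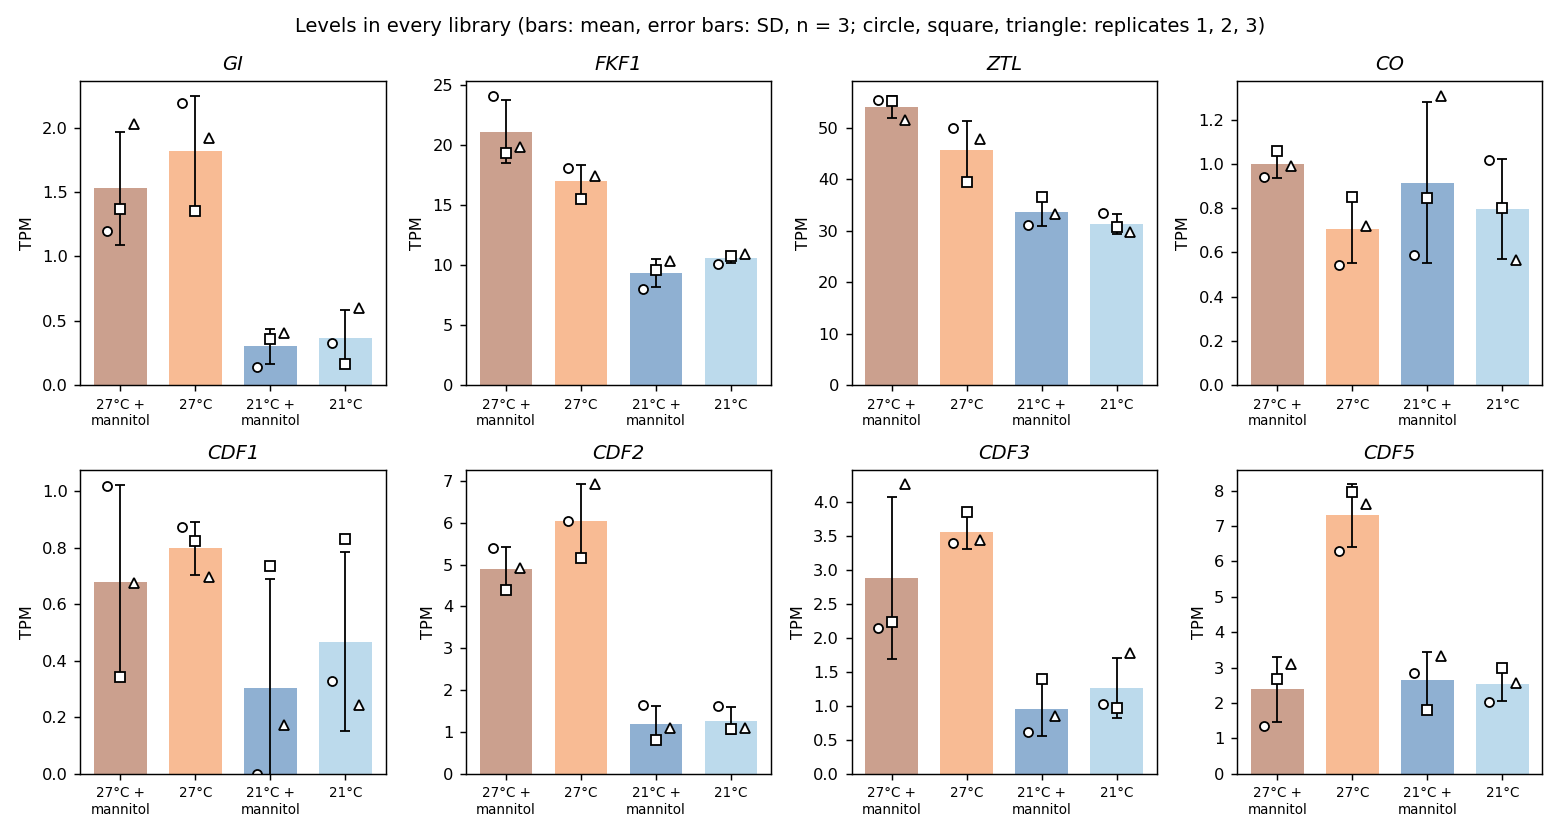
Level of each gene in TPM (vertical axes, starting at 0) in the 4 groups; bars are means, error bars the SD of 3 libraries, and the circle, square and triangle are replicates 1, 2 and 3. GI, FKF1, ZTL, CDF2 and CDF3 stand higher in both 27°C groups, CDF5 stands at 6.3 to 7.97 TPM in 27°C without mannitol only and at 1.34 to 3.34 TPM in the other 9 libraries.

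GI (AT1G22770, chr1:8061751-8067790), the scaffold that carries the F-box proteins, was a rare transcript. It had 1.20, 1.37 and 2.03 TPM in 27°C with mannitol, 2.19, 1.35 and 1.92 TPM in 27°C, 0.143, 0.356 and 0.403 TPM in 21°C with mannitol and 0.329, 0.167 and 0.601 TPM in 21°C. The 6 warm libraries all lay above the 6 cool ones, and the mannitol groups overlapped the groups without it at both temperatures. The ratio of mean TPM was 4.98 for 27°C against 21°C and 5.11 for the same comparison with mannitol. On the log2(TPM + 1) scale, which understates changes of rare transcripts, the differences were 1.05 ± 0.21 (SE, adjusted p = 8.33e-04) and 0.95 ± 0.21 (adjusted p = 0.00139). These values rest on 42 to 75 reads per library at 27°C and 5 to 22 reads at 21°C.

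FKF1 (AT1G68050, chr1:25508639-25510907), whose LOV domain reads blue light and whose targets include the CDF proteins, showed the same split at a higher level. It had 24.1, 19.3 and 19.8 TPM in 27°C with mannitol, 18.1, 15.5 and 17.4 TPM in 27°C, 7.98, 9.61 and 10.3 TPM in 21°C with mannitol and 10.1, 10.7 and 10.9 TPM in 21°C. All warm libraries were above all cool ones, and at 27°C the libraries with mannitol were above those without it. The log2 difference for 27°C against 21°C was 0.64 ± 0.11 without mannitol (adjusted p = 3.57e-04) and 1.10 ± 0.11 with it (adjusted p = 2.13e-06). The difference between these responses was 0.47 ± 0.16, with a 95% interval of 0.12 to 0.81, and was not called (adjusted p = 0.12, unadjusted p = 0.0113 in limma).

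ZTL (AT5G57360, chr5:23241320-23244590), a clock F-box protein that removes TOC1 and PRR5, was the most abundant of the 8 per length. It had 55.5, 55.3 and 51.6 TPM in 27°C with mannitol, 49.9, 39.4 and 47.8 TPM in 27°C, 31.1, 36.5 and 33.3 TPM in 21°C with mannitol and 33.5, 30.7 and 29.7 TPM in 21°C. The groups fell in that order of means, and the 2 cool groups overlapped. The log2 difference for warmth was 0.53 ± 0.092 without mannitol (adjusted p = 3.02e-04) and 0.67 ± 0.092 with it (adjusted p = 2.98e-05).

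CDF2 (AT5G39660, chr5:15878698-15881537), a repressor of CO and FT, had the highest difference of the 8 on the log2(TPM + 1) scale in both warm comparisons, while by the ratio of mean TPM GI was higher. Its levels were 5.40, 4.38 and 4.92 TPM in 27°C with mannitol, 6.04, 5.15 and 6.92 TPM in 27°C, 1.64, 0.814 and 1.10 TPM in 21°C with mannitol and 1.63, 1.06 and 1.10 TPM in 21°C. The lowest warm library held more than the highest cool one, while groups with and without mannitol overlapped. Mean TPM was 4.77 times as high at 27°C as at 21°C and 4.13 times as high with mannitol, and the log2 differences were 1.64 ± 0.18 (adjusted p = 3.87e-06) and 1.45 ± 0.18 (adjusted p = 9.65e-06).

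CDF3 (AT3G47500, chr3:17503883-17506124), a CDF also known for a part in cold and drought tolerance, followed CDF2 at a lower level. It had 2.15, 2.23 and 4.26 TPM in 27°C with mannitol, 3.39, 3.85 and 3.44 TPM in 27°C, 0.616, 1.40 and 0.853 TPM in 21°C with mannitol and 1.03, 0.973 and 1.77 TPM in 21°C. Replicate 3 of 27°C with mannitol was the highest library, and the 2 other libraries of that group were below the 27°C ones, so these groups overlapped. The log2 difference for warmth was 1.03 ± 0.22 (adjusted p = 0.00163) and with mannitol 0.97 ± 0.22 (adjusted p = 0.00216).

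CDF1 (AT5G62430, chr5:25069093-25071111), the CDF first tied to FKF1, was too rare to test. It had 1.02, 0.342 and 0.675 TPM in 27°C with mannitol, 0.875, 0.823 and 0.695 TPM in 27°C, 0, 0.736 and 0.172 TPM in 21°C with mannitol and 0.328, 0.831 and 0.245 TPM in 21°C. That is 0 to 12 reads per library, and all groups overlapped. Without a filter the log2 difference for warmth was 0.31 ± 0.21 (adjusted p = 0.281) and with mannitol 0.39 ± 0.21 (adjusted p = 0.157 in limma); leaving out replicate 2 of 21°C with mannitol made the second 0.61 (adjusted p = 0.0293). Over its 21 alternatives the adjusted p of that second value ran between 0.0293 and 0.479.

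CO (AT5G15840, chr5:5170162-5173085), the activator of FT, had 0.943, 1.06 and 0.991 TPM in 27°C with mannitol, 0.544, 0.852 and 0.720 TPM in 27°C, 0.590, 0.847 and 1.31 TPM in 21°C with mannitol and 1.02, 0.803 and 0.564 TPM in 21°C. Warm and cool groups overlapped, and replicate 3 of 21°C with mannitol was the highest library. The log2 difference for warmth was -0.07 ± 0.19 (adjusted p = 0.796), with a 95% interval of -0.48 to 0.34, and with mannitol 0.078 ± 0.19 (adjusted p = 0.755), with an interval of -0.34 to 0.49. The log2(TPM + 1) scale understates changes of rare transcripts, so these intervals are not bounds on the fold change of CO. In voom, a fit on the recovered reads, the differences were -0.24 ± 0.4 for warmth and 0.012 ± 0.36 for warmth with mannitol. With 9 to 22 reads per library, changes within such spreads could be missed at this depth. Of the exon bases of CO, 25.2% lie opposite AT5G15843, which is listed at 0 in all 12 libraries.

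**Figure D2:**
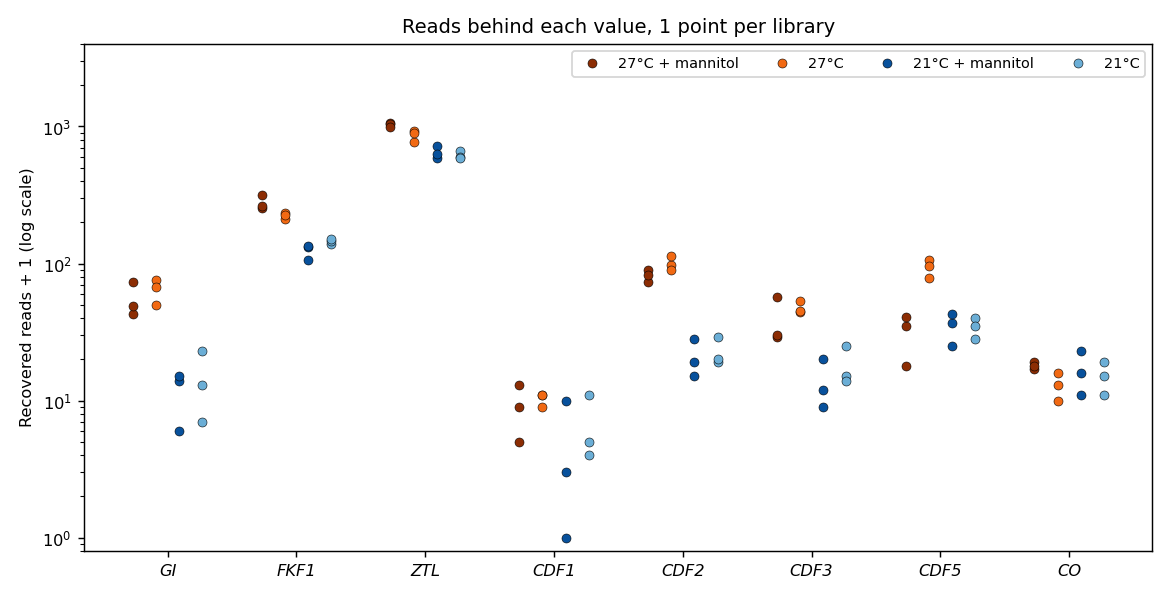
Reads behind each value, recovered from the TPM (vertical axis, reads + 1 on a log scale), with 1 point per library and the 4 groups side by side for each gene. CDF1 rests on 0 to 12 reads and CO on 9 to 22, against 589 to 1054 for ZTL.

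CDF5 (AT1G69570, chr1:26161528-26163715), another CDF repressor, had its high level in warmth without mannitol. It had 1.34, 2.68 and 3.11 TPM in 27°C with mannitol, 6.30, 7.97 and 7.62 TPM in 27°C, 2.84, 1.81 and 3.34 TPM in 21°C with mannitol and 2.04, 2.99 and 2.56 TPM in 21°C. The 3 libraries of 27°C without mannitol stood above the other 9, and those 9 overlapped. Mean TPM at 27°C was 2.88 times that at 21°C, a log2 difference of 1.24 ± 0.22 (adjusted p = 3.16e-04). With mannitol the ratio was 0.894 and the log2 difference -0.13 ± 0.22, which was not called (adjusted p = 0.625, 95% interval -0.60 to 0.33).

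The interaction sets the warm response under mannitol against the one without it, and was -1.37 ± 0.31 for CDF5 (95% interval -2.03 to -0.71, limma adjusted p = 0.0176). Among the 7 tested genes CDF5 was the only 1 called, where 5.12% of all tested genes were called, 2.69% lower and 2.43% higher; the median over the 7 was -0.065, and over all genes 0.072. The interaction of CDF2 was -0.19 ± 0.25 (95% interval -0.72 to 0.34, adjusted p = 0.716) and that of CDF3 -0.065 ± 0.32 (interval -0.74 to 0.61, adjusted p = 0.933). For GI it was -0.093 ± 0.29, for ZTL 0.14 ± 0.13 and for CO 0.15 ± 0.27, with adjusted p of 0.893, 0.576 and 0.805. Whether CDF5 differs in this from its relatives CDF2 and CDF3 was not tested. Without replicate 3 of 21°C with mannitol the CDF5 interaction was -1.24 and missed the threshold at adjusted p = 0.054, the highest of the 21 alternatives, whose adjusted p began at 0.00547.

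**Figure D3:**
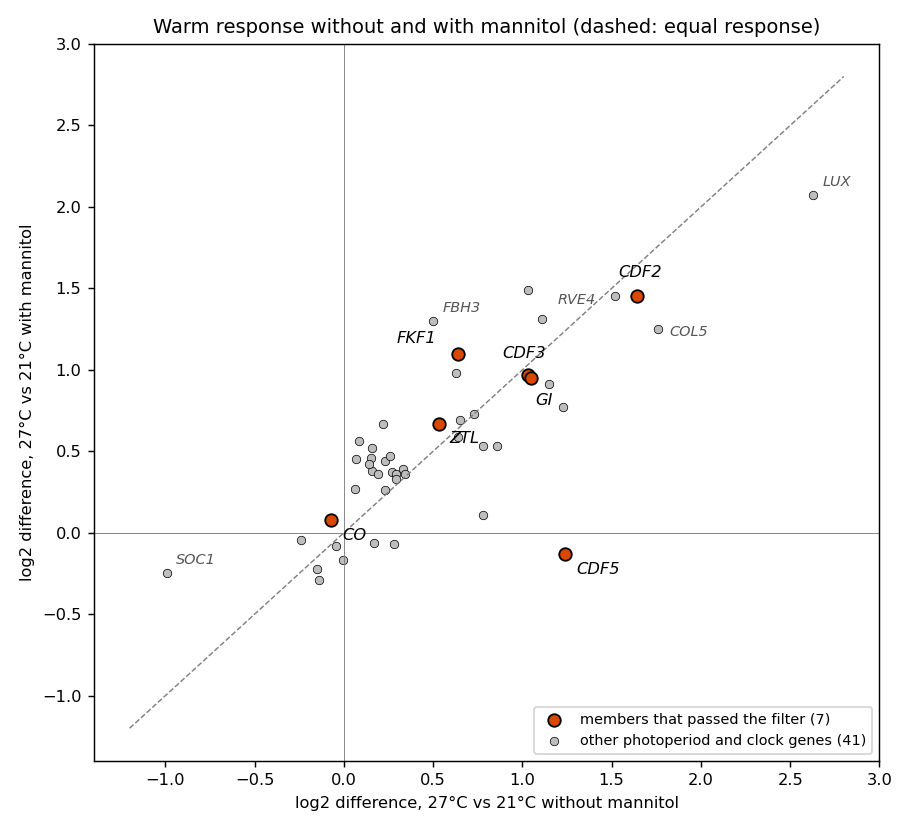
Log2 difference of 27°C against 21°C without mannitol (horizontal axis) and with mannitol (vertical axis), on the log2(TPM + 1) scale, for the 7 genes that passed the filter (orange) and 41 tested genes of the pathway lists (grey); the axes share no libraries, and the dashed line marks equal responses. CDF5 lies at 1.24 and -0.13, far below the line, while CDF2 lies at 1.64 and 1.45.

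Mannitol at 27°C lowered CDF5 and left the other members without a call. The CDF5 level in 27°C with mannitol was 0.326 times that in 27°C, with no overlap of libraries, and the log2 difference was -1.33 ± 0.22 (adjusted p = 3.20e-04). CDF5 was the only member of 7 called in limma, against 6.8% of all genes called lower, 27.7% higher and 34.5% in either direction. The median over the 7 was -0.16, against 0.17 over all genes. FKF1 and ZTL lay higher with mannitol in all 3 libraries, by 0.29 ± 0.11 (adjusted p = 0.0599) and 0.24 ± 0.092 (adjusted p = 0.0526), and were not called. After median-of-ratios rescaling, which takes the median over all genes to -0.013, FKF1 was at 0.11 and ZTL at 0.053. CO also lay higher in all 3 libraries, at 0.23 ± 0.19 (adjusted p = 0.371), while GI at -0.16 ± 0.21, CDF2 at -0.25 ± 0.18 and CDF3 at -0.27 ± 0.22 overlapped between groups. The call on FKF1 and ZTL turned on processing choices and on single libraries. With a pseudocount of 5 both were called, FKF1 at 0.24 (adjusted p = 0.0458) and ZTL at 0.23 (adjusted p = 0.0478), and ZTL also with the filter of 5 TPM (adjusted p = 0.0499). Without replicate 1 of 27°C, ZTL was 0.31 (adjusted p = 0.0197), and without replicate 1 of 21°C with mannitol, FKF1 was 0.29 (adjusted p = 0.0493), in ranges over 22 alternatives of 0.0197 to 0.709 for ZTL and 0.0458 to 0.534 for FKF1.

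Phloem companion cells, where CO and the CDF proteins are known to act, have the sucrose carrier gene SUC2 and the proton pump gene AHA3 as markers. Both of these markers were lower with mannitol at 27°C, SUC2 by -0.52 ± 0.078 (adjusted p = 1.45e-04) and AHA3 by -0.37 ± 0.10 (adjusted p = 0.0132). Their summed level was 180 to 198 TPM in 27°C with mannitol, 222 to 289 TPM in 27°C, 218 to 226 TPM in 21°C with mannitol and 233 to 264 TPM in 21°C. SUC2 also had a called interaction of -0.48 ± 0.11 (limma adjusted p = 0.0196). In the interaction 1 of these 2 markers and 1 of the 3 green tissue markers were called lower, beside 2.69% of all tested genes. The AHA3 interaction was -0.065 ± 0.15 (adjusted p = 0.843), and for 27°C against 21°C without mannitol SUC2 was at 0.02 ± 0.078 and AHA3 at 0.22 ± 0.10, neither called. Among the root markers IRT1 had a called interaction of -2.49 ± 0.43 (adjusted p = 0.00338) and PYK10 one of 0.50 ± 0.075 (adjusted p = 0.00115). The part of these markers in the CDF5 result was not tested. CDF5 also has an antisense neighbour: AT1G69572, a long noncoding RNA gene on the opposite strand (chr1:26161551-26162791), covers 1154 of its 1928 exon bases, or 59.9%. The labels state no strand for the libraries, so reads of CDF5 and of this gene cannot be told apart within that stretch. AT1G69572 is not among the 27655 genes that have values, so its own level cannot be read.

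**Figure D4:**
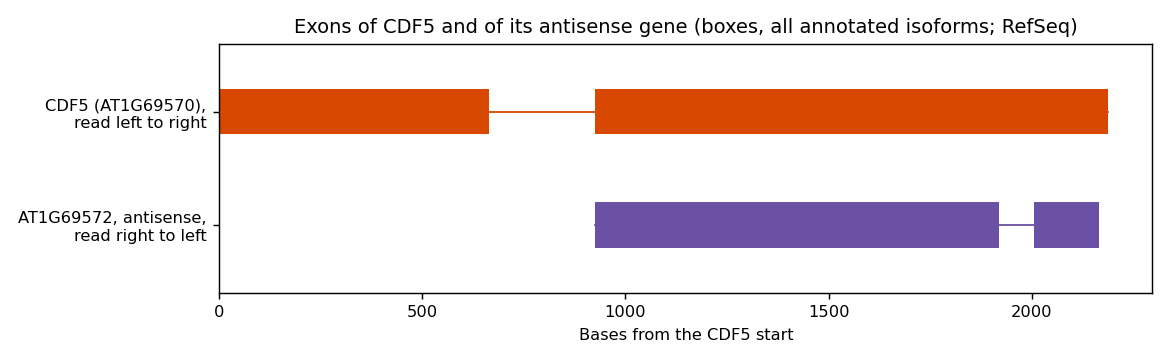
Exons of CDF5 (top, read left to right) and of the antisense gene AT1G69572 (bottom, read right to left) as boxes, to scale in bases from the CDF5 start (horizontal axis), with all isoforms of RefSeq TAIR10.1 drawn together. The antisense exons lie opposite the last CDF5 exon, and the first CDF5 exon is free of them.

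Mannitol at 21°C gave no call among the 7 tested genes in limma: 0 were called and 0 had an unadjusted p below 0.05, and voom on recovered reads also called 0. Of all tested genes 20% were called, 15.4% higher and 4.61% lower, and the median was -0.06 over the 7 and 0.078 over all genes. CDF5 was at 0.038 ± 0.22 (adjusted p = 0.931) and FKF1 at -0.17 ± 0.11 (adjusted p = 0.326), the lowest unadjusted p of the 7 being that of FKF1, 0.146. The 95% interval ran from -0.42 to 0.068 for FKF1, from -0.097 to 0.30 for ZTL, from -0.69 to 0.27 for CDF3, from -0.43 to 0.50 for CDF5 and from -0.33 to 0.50 for CO, so what could have been missed differs by gene. For rare transcripts such as CO the scale understates changes, so these intervals are not bounds on fold change. The libraries of both groups overlapped for all 8 genes.

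**Figure D5:**
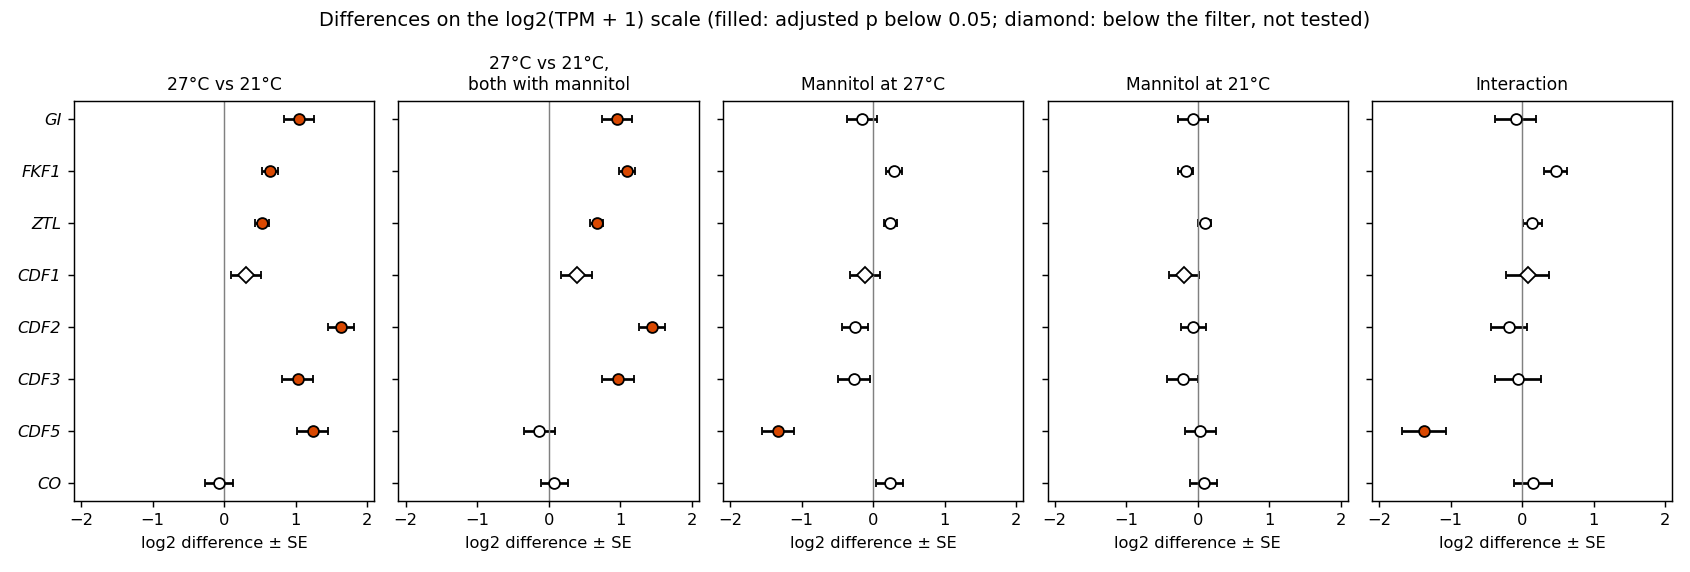
Log2 differences of the 8 genes (horizontal axes, log2(TPM + 1) scale, bars are the SE) in the 5 comparisons; filled points have an adjusted p below 0.05 and diamonds mark CDF1, which was below the filter. CDF5 is filled at 1.24 for warmth, at -1.33 for mannitol at 27°C and at -1.37 for the interaction, and open at -0.13 for warmth with mannitol.

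Transcripts of proteins that work with FKF1 and ZTL, or are removed by them, were mostly higher in warmth as well; no protein was measured. Of 5 such genes, 4 were called higher and 0 lower at 27°C against 21°C (median 0.73), and 4 higher and 1 lower with mannitol (median 0.73), beside 28.2% of all tested genes higher (median 0.087) and, with mannitol, 37.5% (median 0.16). Rescaling left 22% of all tested genes called higher for warmth and 23% for warmth with mannitol, the shares against which the rescaled counts of the lists stand. The ZTL targets TOC1 and PRR5, both clock repressors, were both called higher: TOC1 at 1.11 ± 0.083 (adjusted p = 1.31e-07) and PRR5 at 1.15 ± 0.13 (adjusted p = 5.06e-06). With mannitol TOC1 was at 1.31 ± 0.083 and PRR5 at 0.91 ± 0.13. LKP2, the third LOV F-box protein, rose by 0.73 ± 0.088 in both (adjusted p = 1.10e-05, and 8.47e-06 with mannitol). CUL1, the cullin of the ligase, rose by 0.19 ± 0.069 (adjusted p = 0.0375) and with mannitol by 0.36 ± 0.069 (adjusted p = 5.44e-04). After rescaling its 0.094 without mannitol was not called, which left 3 of 5 called higher. The gene called lower was ASK1, at -0.17 ± 0.056 for warmth with mannitol (limma adjusted p = 0.0201), or -0.35 after rescaling (adjusted p = 2.18e-04). Without mannitol ASK1 was at -0.0062 ± 0.056 and not called. Of the relatives of the CDF genes, CDF4 was at -0.043 ± 0.15 for warmth (adjusted p = 0.842), AT1G26790 was listed at 0 in all libraries, and COG1 was called higher with mannitol at 27°C (0.39 ± 0.12, adjusted p = 0.0237) and at 21°C (0.46 ± 0.12, adjusted p = 0.0148). Rescaling ended both COG1 calls, at 0.21 and 0.36.

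Relatives of CO differed from CO itself in level and in call. All 6 CONSTANS-like genes tested were called higher at 27°C against 21°C, without mannitol (median 0.48) and with it (median 0.58). The shares of all tested genes called higher were 28.2% and 37.5% (medians 0.087 and 0.16). After rescaling 5 and 4 of the 6 were called higher, beside 22% and 23% of all tested genes. COL5 had 50.7 ± 4.97 TPM in 27°C with mannitol, 67.8 ± 5.83 TPM in 27°C, 20.6 ± 1.48 TPM in 21°C with mannitol and 19.3 ± 1.59 TPM in 21°C (SD, n = 3 each). Its warm response was 1.76 ± 0.094 and with mannitol 1.25 ± 0.094, and the interaction of -0.51 ± 0.13 was called (adjusted p = 0.0398). COL1 rose by 1.23 ± 0.14, COL2 by 0.63 ± 0.17 and COL3 by 0.33 ± 0.073, with adjusted p of 7.53e-06, 0.0078 and 0.0019. Among the 4 FBH genes, whose basic helix-loop-helix proteins activate CO transcription, 1 was called higher in warmth and 2 with mannitol, which is near the 28.2% and 37.5% of all tested genes. After rescaling the count with mannitol was 1 higher and 1 lower, FBH2 being called lower at -0.46 (adjusted p = 0.00529). FBH3 had 32.7 ± 2.27 TPM in 27°C with mannitol, 21.4 ± 1.36 TPM in 27°C, 12.7 ± 1.03 TPM in 21°C with mannitol and 14.9 ± 1.81 TPM in 21°C, and its interaction of 0.80 ± 0.14 was called (adjusted p = 0.00412), opposite in sign to that of CDF5. FBH4 was at 0.23 ± 0.093 in warmth (adjusted p = 0.0585), and its 0.26 ± 0.093 with mannitol (adjusted p = 0.028) was not called after rescaling, at 0.082.

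Photoreceptors and ligase parts that set the stability of the CO protein gave 5 of 10 higher in warmth (median 0.21) and 9 of 10 with mannitol (median 0.46), with 0 lower in both, beside 28.2% and 37.5% of all tested genes higher (medians 0.087 and 0.16); after rescaling 4 and 6 were called higher. PHYA rose by 0.86 ± 0.10, SPA1 by 0.65 ± 0.12 and CRY1 by 0.64 ± 0.078 at 27°C (adjusted p = 8.09e-06, 3.63e-04 and 1.24e-05). SPA3, at 0.26 ± 0.099 (adjusted p = 0.0419), was not called after rescaling, at 0.17. Of 5 NF-Y subunits that bind CO, 3 were called higher in warmth and 1 lower, beside 28.2% and 16.6% of all tested genes. After rescaling 0 were called higher and 1 lower, where 22% of all tested genes were called higher. Under mannitol, warmth gave 2 higher and 0 lower, beside 37.5% and 16.5%, or 1 and 1 after rescaling. Mannitol at 27°C gave 1 higher and 1 lower, beside 27.7% and 6.8%. After rescaling that became 0 higher and 3 lower, where 2983 of all 20005 tested genes were lower. With mannitol at 27°C NF-YB3 fell, at -0.48 ± 0.099 (adjusted p = 0.00183), and NF-YC9 was called higher at 0.27 ± 0.073 (adjusted p = 0.0103), a call that rescaling ended at 0.081. NF-YB2 was called higher with warmth under mannitol (0.44 ± 0.073, adjusted p = 1.59e-04), as was NF-YC3 (0.33 ± 0.085, adjusted p = 0.00474), the second ending on rescaling at 0.15.

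The florigen gene FT, the target of CO and of the CDF proteins, had 0 reads in 27°C with mannitol, 1 read in 27°C, 0 reads in 21°C with mannitol and 1 read in 21°C, each over 3 libraries. Of 6 floral genes, SOC1, a flowering integrator, was the only 1 to pass the filter. SOC1 had 3.26 ± 0.362 TPM in 27°C with mannitol, 2.27 ± 0.551 TPM in 27°C, 4.06 ± 0.581 TPM in 21°C with mannitol and 5.44 ± 0.381 TPM in 21°C (SD, n = 3 each), and fell with warmth, at -0.99 ± 0.16 (adjusted p = 1.26e-04). With mannitol its warm response was -0.25 ± 0.16 (adjusted p = 0.197), and the interaction of 0.74 ± 0.22 was not called (adjusted p = 0.0689).

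Clock genes upstream of the photoperiod genes gave 5 of 8 tested higher and 0 lower in warmth (median 0.78). With mannitol 7 of 8 were higher and 0 lower (median 0.61), and after rescaling 5 and 6 were higher. Of all tested genes 28.2% were called higher in warmth (median 0.087) and 37.5% with mannitol (median 0.16), or 22% and 23% after rescaling. RVE8 and PRR7 passed the filter only through their 27°C libraries, and LHY only through those of 27°C with mannitol. Passing in that way by itself favours a difference, so these counts describe the genes and are not support for a rule about them. LUX, which binds DNA in the evening complex, rose by 2.63 ± 0.096 without mannitol and 2.07 ± 0.096 with it, and its interaction of -0.56 ± 0.14 was called (adjusted p = 0.0273), the same direction as that of CDF5. RVE4, an afternoon activator, rose by 1.52 ± 0.096 and with mannitol by 1.45 ± 0.096, and RVE8 by 1.03 ± 0.21 and 1.49 ± 0.21. PRR7, a daytime repressor of clock genes, rose by 0.78 ± 0.24 (adjusted p = 0.0148), and was at 0.11 ± 0.24 with mannitol (adjusted p = 0.728); its interaction of -0.68 ± 0.34 was not called (adjusted p = 0.288).

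The genes whose pattern over the 12 libraries was nearest to each member were found among 15979 tested genes of at least 5 TPM, by the root-mean-square difference between mean-centred log2(TPM + 1) values. For CDF2, whose own values had an SD of 0.793, the nearest were RVE4 (0.123), COL5 (0.151) and the chlorophyll b synthesis gene CH1 (0.152). For CDF5, with an SD of 0.597, they were AT2G25625 (0.234), AT1G12080 (0.272) and the arabinogalactan protein gene AGP12 (0.296). AT1G12080 had a mean of 95.7 TPM in 27°C with mannitol, 297 TPM in 27°C, 110 TPM in 21°C with mannitol and 126 TPM in 21°C, so its high group was that of CDF5. FKF1 was nearest to AT1G53060 (0.0909), ZTL to BGLU8 (0.0507), GI to MAN6 (0.143) and CDF3 to AT1G23970 (0.217). For rare members this likeness holds on the log2(TPM + 1) scale and not in ratios: MAN6 averaged 84.2 TPM in 27°C and 41.0 TPM in 21°C, and AT1G23970 averaged 15.7 TPM in 27°C and 8.51 TPM in 21°C, smaller ratios than the 4.98 of GI and the 2.83 of CDF3. CO had AT5G63520 nearest (0.0787), but its own SD was only 0.169.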

How the data were processed

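RNA was measured in 12 libraries, 3 in each of 4 groups, grouped by their labels. The authors deposited 1 table of TPM values for 27655 genes, each column summing to 1000000. Per the submitters' processing notes, fastp 0.20.1, HISAT2 2.1.10, DESeq2 1.26.0 and the TAIR10 genome were used, without their order or role. Row names are those of Araport11 gene models. No source used here gives the counting tool, the gene lengths or any filter. The files carry no coordinates, so positions and upstream bases come from the RefSeq assembly TAIR10.1, matched by locus identifier for 27445 of the 27655 genes.

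Whole reads were recovered from the TPM values by finding the step that makes a gene's values whole, within a tolerance of 0.01. All values came out whole (100%) for the 21760 genes that had a TPM above 0 in 6 or more libraries. The reads came to 13478365 to 14573463 per library. They give depth and, chosen after seeing the data, 2 alternative fits with voom.

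Values were taken as log2(TPM + 1), and genes of at least 1 TPM in at least 3 libraries were tested: 20005 genes, with 7650 left out. limma 3.58.1 in R 4.3.3 fitted 4 group means with a mean-variance trend and no covariate. It gave 5 two-sided contrasts, each adjusted by Benjamini-Hochberg over all tested genes and called below 0.05. The code was tested on simulated data. A ± after a log2 difference is the SE of the fit, after TPM the SD of 3 libraries. Alternatives were pseudocounts of 0.1 and 5, no filter, a filter of 5 TPM, median-of-ratios rescaling, no trend, only the groups compared, a replicate block and each library left out.

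The 8 members and the pathway and marker lists were chosen with earlier results of these data known. From each pathway list up to 4 called genes with the largest absolute log2 difference were named; where none was called, up to 2 by level. CDF4, AT1G26790, ASK1 and AT5G15843, which overlaps CO, were named outside that rule, after their values were seen. Of the exon stretches of 50 bases, 0.87% for FKF1, 0.517% for CDF2 and 0% for the other members also occur elsewhere in the genome.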

Additional observations from a re-analysis of the deposited data

Results flagged for a closer look

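The warm response of CDF5 differed between seedlings with and without mannitol by the test of the difference itself. The warm response with mannitol minus that without it was -1.37 ± 0.31 on the log2(TPM + 1) scale (limma, adjusted p = 0.0176). All 3 libraries of 27°C without mannitol lay above the other 9 libraries. The summed phloem companion cell markers SUC2 and AHA3 were at 180 to 198 TPM in 27°C with mannitol, 222 to 289 TPM in 27°C, 218 to 226 TPM in 21°C with mannitol and 233 to 264 TPM in 21°C. The sums were lower with mannitol at 27°C and also at 21°C, and overlapped between 27°C and 21°C without it. At 21°C neither marker was called with mannitol, while after rescaling AHA3 was called lower at -0.41 (limma adjusted p = 0.00822). SUC2 had a called interaction of -0.48 ± 0.11 (adjusted p = 0.0196), and AHA3 was at -0.065 ± 0.15 (adjusted p = 0.843). Their part in the result was not tested.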

How the results depend on the processing

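Over 40 member values, 837 alternative values were computed: 801 kept direction and side of the threshold, 1 lost a call, 7 gained one and 28 changed sign, all of these being values without a call. Outside left-out libraries, the sign changed for ZTL with mannitol at 21°C (-0.0031 rescaled, -0.0024 in voom), CDF5 with mannitol at 21°C (-0.038 and -0.07), CO in warmth with mannitol (-0.011 rescaled) and the CDF3 interaction (0.018 with a pseudocount of 0.1). Leaving out libraries gave, for mannitol at 21°C, -0.17 to 0.057 for GI, -0.21 to 0.065 for CDF2, -0.095 to 0.22 for CDF5 and -0.011 to 0.21 for CO. It gave -0.26 to 0.036 for CDF1 with mannitol at 27°C, and in warmth with mannitol -0.31 to 0.11 for CDF5 and -0.047 to 0.099 for CO. For the interaction it gave -0.23 to 0.015 for GI, -0.096 to 0.30 for CDF1 and -0.30 to 0.092 for CDF3. Members called with mannitol at 27°C numbered 3 with a pseudocount of 5, 2 with the filter of 5 TPM, 2 in voom (CDF2 at -0.49, adjusted p = 0.0372, in a range of 0.0372 to 0.571) and 1 to 2 with libraries left out. Members called in warmth with mannitol numbered 3 with the filter of 5 TPM, which tests fewer genes. The interaction called 0 to 1 members and 655 to 1765 of all genes with libraries left out, 655 without replicate 3 of 21°C with mannitol, 666 and 667 without replicates 3 and 2 of 27°C with mannitol and 1765 without replicate 1 of 27°C, against 1024 with all. Other causes were not tested. Rescaling moved the share of calls that were higher to 50.3% from 62.9% for warmth, 52% from 77% and 44% from 80.3% for mannitol at 21°C and 27°C, 47.6% from 69.4% for warmth with mannitol and 29.8% from 47.5% for the interaction. Same-numbered libraries had residual correlations of -0.076 to 0.13, with 2 of 18 pairs above 0.1 and 2 of 12 libraries nearest their own number. Both pairs above 0.1 joined 21°C with 27°C, without mannitol. The labels do not say whether a number marks a shared batch, and these correlations cannot settle it. With the replicate block the CDF5 interaction was -1.37 (limma adjusted p = 0.015) and the counts of members called did not change. CDF1 and CO are limited by depth, at 0 to 12 and 9 to 22 reads per library.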
